A study of Homo sapiens with 6 samples.

Results

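CXCL8, the gene of the neutrophil-attracting chemokine interleukin-8, and IL17RC, which encodes a subunit of the interleukin-17 receptor, were followed with 8 further genes of chemokine, interleukin-17 and NF-kB signalling in breast cancer cells given CTI-2. The 10 genes were CXCL8, CXCL1, CXCL2, CXCL16, IL17RC, IL17RA, NFKBIA, NFKB1, NFKB2 and RELA, picked by symbol from a table of 16362 genes. CXCL8 and IL17RC were picked because their read counts were lower after CTI-2, so their values in that comparison are given as a description without a test. Of the 10 genes, 9 were measured and CXCL1 was not analysed here. The cells are MDA-MB-231 per the labels, a human triple-negative breast cancer line, and both groups were read at 24 h per the series' design text. The 3 control libraries had no agent and the 3 CTI-2 libraries had CTI-2, a compound known here only by its code name, with neither dose nor vehicle in the labels. Libraries were made from total RNA as amplified whole cDNA and read on the Oxford Nanopore platform.

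Chemokines are small secreted proteins that draw leukocytes through receptors on their surface. Those with glutamate-leucine-arginine before the first cysteines, CXCL8, CXCL1 and CXCL2 among them, act on CXCR1 and CXCR2 and attract neutrophils, while CXCL16 is made as a membrane protein that is shed by ADAM proteases and binds CXCR6. Interleukin-17 acts through a receptor of IL17RA and IL17RC, which recruits the adaptor TRAF3IP2 (Act1), activates NF-kB through TRAF6 and stabilises chemokine mRNA. NF-kB is a family of dimeric transcription factors held in the cytoplasm by inhibitors such as the product of NFKBIA. RELA encodes the p65 subunit, NFKB1 the p105 precursor of p50 and NFKB2 the p100 precursor of p52. CXCL8, CXCL2, NFKBIA and NFKB2 are textbook NF-kB target genes.

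Promoter sequence was used to show what the chemokine and inhibitor genes have in common upstream of their start. Windows of 300 bases, 250 before and 50 after the start, came from RefSeq on GRCh38.p14 and were found for 8 of the 10 members. The letters GGAANTTCC, the core of many NF-kB sites, were searched on both strands, as were TGANTCA, the core of many AP-1 sites, and the longer consensus known as the kB motif, which overlaps the first. GGAANTTCC lay in a window of 5 of the 8 genes, CXCL8, CXCL1, CXCL2, NFKB1 and NFKBIA, against 1.16% of 27305 genes in the table (0.965% of windows). The kB motif lay in a window of CXCL1, CXCL2, NFKB1, NFKB2 and NFKBIA, and in a window of 7.09% of all genes (5.91% of windows). TGANTCA lay in the window of CXCL8 alone among the 8 genes, and in a window of 9.37% of all genes (7.71% of windows). The members were picked as NF-kB pathway genes, so these shares describe the choice and were not tested. A run of 110 bases, which ends 31 bases before the RefSeq start, is shown for 3 genes that carry GGAANTTCC and for IL17RC, which carries none of the 3 motifs in its window. Capitals mark bases in any motif match.
CXCL8: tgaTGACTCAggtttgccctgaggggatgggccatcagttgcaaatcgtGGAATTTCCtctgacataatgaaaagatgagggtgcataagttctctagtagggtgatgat
CXCL2: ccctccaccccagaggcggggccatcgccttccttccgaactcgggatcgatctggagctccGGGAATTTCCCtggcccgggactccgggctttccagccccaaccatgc
NFKBIA: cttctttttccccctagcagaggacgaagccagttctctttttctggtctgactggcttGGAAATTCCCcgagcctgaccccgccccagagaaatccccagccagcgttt
IL17RC: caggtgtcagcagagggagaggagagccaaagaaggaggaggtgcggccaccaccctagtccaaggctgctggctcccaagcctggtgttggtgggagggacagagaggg
These runs are chr4:73740429-73740538 on the plus strand for CXCL8, chr4:74099226-74099335 on the minus strand for CXCL2, chr14:35404780-35404889 on the minus strand for NFKBIA and chr3:9916958-9917067 on the plus strand for IL17RC. The CXCL8 match GGAATTTCC lies 91 to 83 bases before the RefSeq start, and the same 9 letters lie 77 to 69 bases before the RefSeq start of CXCL2. In GENCODE 29 the starts of both genes are farther upstream. The CXCL8 match, at chr4:73740478-73740486, is therefore closer to the GENCODE start at 73740506. The CXCL2 match falls inside the GENCODE gene span. A match describes these letters only.

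Total counts ran from 2208261 to 3929532 reads per library. Values below are CPM, each count scaled to a library total of 1000000, and the 3 counts that a 0 allows are worth 0.763 to 1.36 CPM depending on the library. Whether each library is its own culture is not stated, and the spread behind the p-values may therefore be technical. In bulk RNA, fewer cells that express a gene and less of its RNA per cell cannot be told apart. Of 9 markers listed as high in this line, 8 passed 10 CPM in some library. AXL did not, and VIM, commonly described as abundant in it, stood at only 14.5 to 18.9 CPM. Of 6 markers listed as low in it, 5 were measured and 2 passed 10 CPM, ERBB2 (at most 11.1 CPM) and EPCAM (at most 10.6 CPM). Of 4 fibroblast markers 2 passed it, COL1A1 at 52.2 to 87.4 CPM and PDGFRB at 12.2 to 23.4 CPM. Leukocyte markers, whose cells also use these pathways, summed to 4.84 to 5.53 CPM in controls and 4.38 to 5.43 CPM after CTI-2 over the 4 of 6 listed genes measured, mostly from CSF1R. CD68 was at 0 in 5 of the 6 libraries and LYZ in 3. Across all genes, edgeR's quasi-likelihood test with Benjamini-Hochberg adjustment called 791 of 9848 tested genes at an adjusted p of 0.05, or 8.03%, 3.39% higher and 4.64% lower. The CPM of the 2 groups did not overlap for 28.8% of tested genes, 15.6% lower and 13.2% higher, so a lack of overlap below is common. Of the 9 measured members 7 had enough reads to be tested, and CXCL16 and IL17RA did not.

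**Figure D1:**
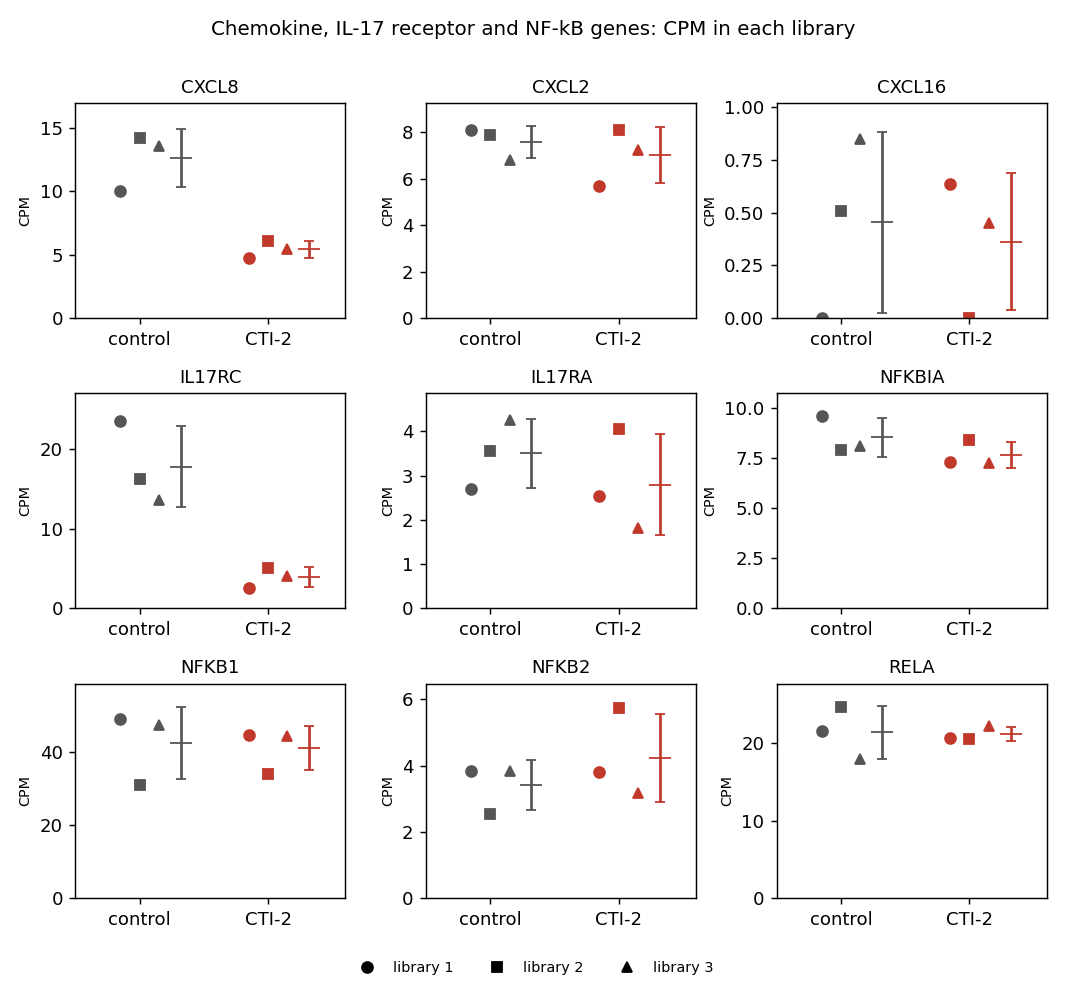
CPM of the 9 measured members in each library (vertical axes, CPM from 0, each panel on its own scale) for control (grey) and CTI-2 (red); symbols mark libraries 1 to 3 of each group and the bar with whiskers is the mean ± SD of 3. The CXCL8 and IL17RC points of the groups do not overlap, and those of the other 7 genes do. CXCL8 and IL17RC were picked for lower counts, and the groups did not overlap for 28.8% of all tested genes.

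Among the chemokines, CXCL8 was lower after CTI-2 and CXCL2 stayed within the spread of the libraries. CXCL8 (ENSG00000169429, chr4:73740506-73743716, plus strand, GENCODE 29 on GRCh38) stood at 10.01, 14.3 and 13.6 CPM in controls 1 to 3 and at 4.76, 6.07 and 5.43 CPM in CTI-2 libraries 1 to 3. Every CTI-2 library lay below every control, as for 15.6% of all tested genes, and the lowest control, control 1, was nearest to them. The counts were 26, 56 and 32 reads against 15, 18 and 12 reads. The mean went from 12.6 ± 2.29 to 5.42 ± 0.655 CPM (mean ± SD, n = 3 each), 2.33-fold lower, with an edgeR log2 fold change of -1.19 (SE 0.27). Its log2 fold change lay between -1.34 and -1.01 when each library was left out in turn.

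CXCL2 (ENSG00000081041, chr4:74097035-74099293, minus strand, GENCODE 29 on GRCh38), a chemokine of the same receptor class, had 8.09, 7.89 and 6.81 CPM in controls against 5.71, 8.09 and 7.25 CPM with CTI-2. The groups overlapped, with the second CTI-2 library as high as the first control. Its edgeR log2 fold change was -0.09 (95% interval -0.67 to 0.49, adjusted p = 0.891). CXCL8 was chosen for its difference, so the contrast between CXCL8 and CXCL2 was not tested. CXCL2 shares sequence with its close paralogs CXCL1 and CXCL3, so its count is uncertain.

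CXCL16, the transmembrane chemokine, had counts of 0, 2 and 2 without the agent and of 2, 0 and 1 with it, at or below 0.851 CPM in any library. A count of 0 allows up to 1.16 CPM in control 1 and 1.01 CPM in CTI-2 library 2, so its level could not be compared at this depth. CXCL16 also overlaps MED11 on the opposite strand by 85 bases. No other measured member overlaps another counted gene of GENCODE 29.

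Of 19 further chemokine ligand genes listed, 6 were measured and none had enough reads to be tested. CXCL3, a neutrophil chemokine like CXCL8, had counts of 13, 15 and 7 without the agent and of 5, 8 and 4 with it, which is 2.98 to 5.01 CPM against 1.59 to 2.70 CPM. These ranges did not overlap, but CXCL3 shares sequence with CXCL2, so its count is uncertain too. Without a low-count filter the edgeR log2 fold change of CXCL3 was -0.89 (adjusted p = 0.310). CCL2, the monocyte chemokine MCP-1, had counts of 9, 11 and 7 without the agent and of 18, 9 and 12 with it, and the groups overlapped (log2 fold change 0.66, adjusted p = 0.43 in edgeR without that filter). Among the receptors and CXCL16-shedding proteases 5 of 12 listed genes were tested and none passed, where 8.03% of all tested genes did. In edgeR 1 of the 5 had an unadjusted p under 0.05, against 2358 of all 9848 tested genes. CXCR4, the receptor of CXCL12, had 84.1 ± 15.4 CPM in controls against 97.5 ± 4.51 CPM with CTI-2 (mean ± SD, n = 3 each, edgeR adjusted p = 0.180), and the sheddase gene ADAM17 had 61.0 ± 9.82 and 61.3 ± 2.15 CPM (edgeR adjusted p = 0.792). ADAM17 overlaps IAH1 on the opposite strand. The CXCL8 receptor genes CXCR1 and CXCR2 were not analysed here.

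Of the receptor subunits, IL17RC was much lower after CTI-2. IL17RC (ENSG00000163702, on chromosome 3) stood at 23.5, 16.3 and 13.6 CPM in controls 1 to 3 and at 2.54, 5.06 and 4.08 CPM in CTI-2 libraries 1 to 3. Every CTI-2 library lay below every control, as for 15.6% of all tested genes. Control 1 was highest of all 6 libraries and CTI-2 library 1 lowest. The counts were 61, 64 and 32 reads in controls and 8, 15 and 9 reads after CTI-2. The mean went from 17.8 ± 5.11 to 3.89 ± 1.27 CPM (mean ± SD, n = 3 each), 4.58-fold lower, with an edgeR log2 fold change of -2.15 (SE 0.29). It ranged from -2.41 to -1.89 when each library was left out in turn.

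IL17RA (ENSG00000177663, on chromosome 22), the shared receptor chain that pairs with IL17RC, had 2.70, 3.56 and 4.26 CPM in controls against 2.54, 4.04 and 1.81 CPM with CTI-2. These rest on 7, 14 and 10 counts against 8, 12 and 4 counts, and the groups overlapped. IL17RA did not pass the filter. Without the filter its edgeR log2 fold change was -0.24 with an SE of 0.44 (adjusted p = 0.828).

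The longest coding transcript of IL17RC in GENCODE 29 has a GC content of 63.5% and that of CXCL8 33.4%. The median was 55.0% among the genes called lower, 46.2% among those called higher and 48.1% over all tested genes, with a value for 88.4%, 96.7% and 93.0% of them. Control 1 held the highest CPM for 43.8% of the 457 genes called lower, control 3 for 49.5% and control 2 for 6.78%. IL17RC was highest in control 1 and CXCL8 in control 2. The part of transcript composition and of single controls in these differences was not tested.

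By the root mean square difference of log2 CPM, each gene centred on its own mean over the 6 libraries, the tested genes most like CXCL8 were CCDC134, MSH3 and AC007240.1, at 0.14, 0.15 and 0.15, among 9217 tested genes with a symbol, whose median was 0.61. MSH3, a mismatch repair gene, went from 16.2, 16.3 and 17.0 CPM in controls to 5.71, 7.75 and 7.25 CPM with CTI-2. The genes most like IL17RC were SLC39A3, DUT and MYDGF, at 0.17, 0.22 and 0.22, where the median was 1.06. DUT, which encodes the dUTP-cleaving enzyme, went from 207, 148 and 83.8 CPM in controls to 20.9, 43.8 and 41.7 CPM. These 3 genes also had their highest control value in control 1 and their lowest value in CTI-2 library 1. CXCL8 and IL17RC differed from each other by 0.60, and control 1 was the lowest control for CXCL8 and the highest for IL17RC. The measure rewards any gene with a like difference between the groups and says nothing of shared control.

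**Figure D2:**
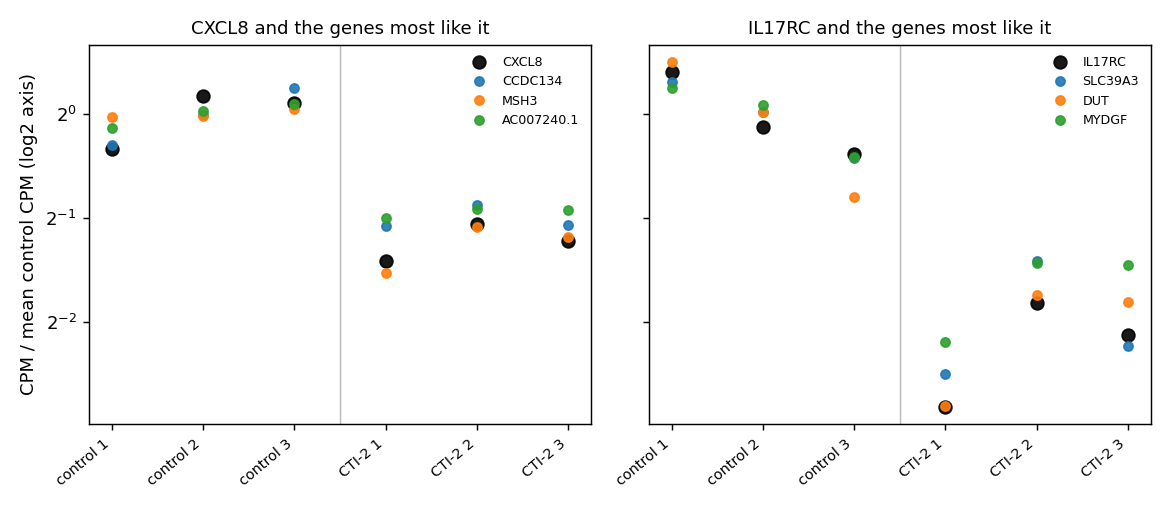
CPM divided by the mean of the 3 controls (log2 axis) in each library, for CXCL8 (left) and IL17RC (right) in black and the 3 tested genes most like each in colour. The CTI-2 libraries lie below the controls for all 8 genes, and on the right control 1 is highest and CTI-2 library 1 lowest for each gene.

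The NF-kB genes themselves showed no called change. NFKBIA (ENSG00000100906, on chromosome 14), which encodes the inhibitor IkB-alpha and is switched on by NF-kB, had 9.63, 7.89 and 8.09 CPM in controls against 7.29, 8.43 and 7.25 CPM with CTI-2. The groups overlapped, and the edgeR log2 fold change was -0.10 (95% interval -0.64 to 0.44, adjusted p = 0.865). RELA (ENSG00000173039, chr11:65653596-65663094, minus strand, GENCODE 29 on GRCh38) had 21.6, 24.7 and 17.9 CPM in controls against 20.6, 20.6 and 22.2 CPM with CTI-2. All 3 CTI-2 values lay inside the range of the controls. Its edgeR log2 fold change was -0.0040 (95% interval -0.38 to 0.37, adjusted p = 0.993).

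NFKB1 (ENSG00000109320, chr4:102501329-102617302, plus strand, GENCODE 29 on GRCh38) had 48.9, 31.0 and 47.2 CPM in controls against 44.7, 34.0 and 44.4 CPM with CTI-2. The second library of each group was the low one, and the groups overlapped. Its edgeR log2 fold change was 0.03 (95% interval -0.29 to 0.35, adjusted p = 0.943), the narrowest interval of the 5 tested genes not chosen for a difference. NFKB2 (ENSG00000077150, chr10:102394110-102402529, plus strand, GENCODE 29 on GRCh38) had 3.85, 2.54 and 3.83 CPM in controls against 3.81, 5.73 and 3.17 CPM with CTI-2. On these 7 to 17 counts per library the edgeR log2 fold change was 0.42 (95% interval -0.37 to 1.22, adjusted p = 0.546).

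The summed CPM of the 4 NF-kB members was 75.7 ± 8.97 in controls and 74.1 ± 4.597 with CTI-2 (mean ± SD, n = 3 each). None of the 5 tested members outside CXCL8 and IL17RC was called, where 8.03% of all tested genes were. With so few genes a count of 0 is near that share and is no result about them. None had an unadjusted p under 0.05 in edgeR, which 2358 of all 9848 tested genes had. DESeq2, with an adjusted p for 3 of them, and limma-voom called 0 of them too. Their median log2 fold change was -0.0040, against -0.01 for all tested genes.

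Levels were also set per kilobase of each gene's longest coding transcript, with the caution that a whole-cDNA read may stand for a molecule of any length. On this scale NFKB1 was highest in controls at 10.4 ± 2.42 CPM per kilobase. CXCL8 (7.41 ± 1.34), IL17RC (6.79 ± 1.95), RELA (6.72 ± 1.07), CXCL2 (6.24 ± 0.565) and NFKBIA (5.48 ± 0.612) followed, and from CXCL8 to CXCL2 each neighbour differed from the next by less than the SD of either (n = 3), while CXCL2 and NFKBIA differed by more. NFKB2 (0.998 ± 0.219), IL17RA (0.407 ± 0.0908) and CXCL16 (0.204 ± 0.193) were far lower. After CTI-2, NFKB1 (10.05 ± 1.49), RELA (6.64 ± 0.291), CXCL2 (5.76 ± 0.991) and NFKBIA (4.91 ± 0.429) kept their order, while CXCL8 stood below all of them at 3.18 ± 0.384 and IL17RC at 1.48 ± 0.484, next to NFKB2 at 1.24 ± 0.39 CPM per kilobase.

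The rest of the pathway was read from 6 lists that hold none of the 10 members. Of 120 listed genes 64 were tested and 7 called, 10.9% against the 8.03% of all tested genes, with 3 higher and 4 lower. A share this near the background is not a result about the lists. Of 30 listed genes of the IkB kinase complex and its upstream relay 26 were tested. Of these 2 fell and none rose, where 4.64% of all tested genes were called lower and 3.39% higher. The median log2 fold change was -0.16 against -0.01 for all tested genes. In edgeR 5 of the 26 had an unadjusted p under 0.05, against 2358 of all 9848 tested genes.

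TNFRSF1A, which encodes the main receptor of tumour necrosis factor upstream of NF-kB, fell. It had 92.8, 60.1 and 54.5 CPM in controls and 25.7, 36.4 and 26.7 CPM in CTI-2 libraries, and the groups did not overlap. The means were 69.1 ± 20.7 and 29.6 ± 5.91 CPM (mean ± SD, n = 3 each), with an edgeR log2 fold change of -1.16 (SE 0.18, adjusted p = 0.00067). TNFRSF1A passed under every alternative run, leaving out each library included, with adjusted p from 5.3e-12 to 0.0099. Control 1 was its highest library, as for IL17RC.

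IKBKG, the gene of the regulatory IkB kinase subunit NEMO, had 50.5, 32.6 and 37.9 CPM in controls against 24.1, 26.6 and 25.8 CPM with CTI-2 (log2 fold change -0.59, edgeR adjusted p = 0.019). The groups did not overlap, though the call was lost without control 1 (adjusted p = 0.183), without CTI-2 library 1 (adjusted p = 0.0725) and in DESeq2 (adjusted p = 0.0952), and adjusted p ran between 0.0077 and 0.183 across settings. Whether counting used strand is not stated, and IKBKG has a near-identical partial pseudogene copy, so its value is uncertain. Among the 8 other NF-kB subunit and inhibitor genes listed 3 were tested and none passed, where 8.03% of all tested genes did. The median log2 fold change of the 3 was -0.40. None of them had an unadjusted p under 0.05 in edgeR, which 2358 of all 9848 tested genes had. NKRF, the NF-kB repressing factor gene, had 30.8 ± 2.39 and 26.6 ± 5.56 CPM (mean ± SD, n = 3 each; NKRF overlaps UBE2A on the opposite strand) and BCL3, an atypical IkB gene, 5.58 ± 1.53 and 3.78 ± 1.82 CPM (mean ± SD, n = 3 each). REL, the gene of the c-Rel subunit and named after its values were seen, had 6.16, 4.33 and 6.38 CPM in controls against 4.12, 2.70 and 3.17 CPM with CTI-2. It was the only 1 of the list's 3 tested genes whose groups did not overlap, as for 28.8% of all tested genes (15.6% lower). Its log2 fold change of -0.65 (SE 0.37, edgeR adjusted p = 0.280) did not pass.

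Of 44 listed NF-kB target genes 24 were tested and 20 of these did not pass, while 3 rose and 1 fell, where 3.39% of all tested genes were called higher and 4.64% lower. The median log2 fold change was 0.03, and 9 of the 24 had an unadjusted p under 0.05, against 2358 of all 9848 tested genes. EFNA1, an ephrin ligand gene, rose from 243, 262 and 254 CPM in controls to 331, 345 and 356 CPM with CTI-2 (log2 fold change 0.49, SE 0.11, edgeR adjusted p = 0.0039). Its groups were well apart, and it passed under every alternative run (adjusted p from 0.00018 to 0.039). NINJ1, which encodes a membrane protein of plasma membrane rupture, rose from 55.9 ± 2.29 to 75.4 ± 11.9 CPM (mean ± SD, n = 3 each, edgeR adjusted p = 0.025) and SDC4, a heparan sulphate proteoglycan gene, from 35.4 ± 1.85 to 46.5 ± 2.08 CPM (mean ± SD, n = 3 each, edgeR adjusted p = 0.041). B4GALT1, a galactosyltransferase gene, fell from 257 ± 27.0 to 189.8 ± 19.8 CPM (mean ± SD, n = 3 each, edgeR adjusted p = 0.030).

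The calls of NINJ1, SDC4 and B4GALT1 were less stable. NINJ1 missed the threshold without control 1 or 3 or CTI-2 library 2 or 3, with library totals and in DESeq2 (adjusted p between 0.0106 and 0.161). SDC4 missed it without any single library other than control 2, with library totals, without the low-count filter and in DESeq2 (0.0388 to 0.146), and B4GALT1 without control 3 or any single CTI-2 library and in DESeq2 (0.0126 to 0.234). Genes named after their values were seen include IL6, an inflammatory cytokine gene that NF-kB induces with CXCL8, at a log2 fold change of 0.25 (edgeR adjusted p = 0.485), and PLAU, the urokinase gene, at -0.40 (edgeR adjusted p = 0.0676). BIRC3, an apoptosis inhibitor gene induced by NF-kB, had 0.52 (edgeR adjusted p = 0.0993).

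In the interleukin-17 list 12 of 24 genes were tested and 1 passed, where 8.03% of all tested genes did. It was the list's only gene at an unadjusted p under 0.05 in edgeR, which 2358 of all 9848 tested genes had. USP25, which encodes a deubiquitinase that acts on interleukin-17 receptor signalling, fell from 11.6, 10.7 and 13.2 CPM in controls to 4.76, 7.08 and 6.34 CPM with CTI-2 (log2 fold change -0.91, SE 0.27, edgeR adjusted p = 0.027). Its groups did not overlap, but the call was lost without control 1 or 3 or CTI-2 library 1 or 3 and in DESeq2, and its adjusted p ran between 0.0226 and 0.153 across settings. The list's median was 0.01, and the adaptor gene TRAF3IP2, named after its value was seen, had a log2 fold change of 0.01 (edgeR adjusted p = 0.980). Over all 6 lists the number of called genes was 3 when control 1 or 3, or the first or last CTI-2 library, was left out, 4 without CTI-2 library 2 and 7 without control 2.

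**Figure D3:**
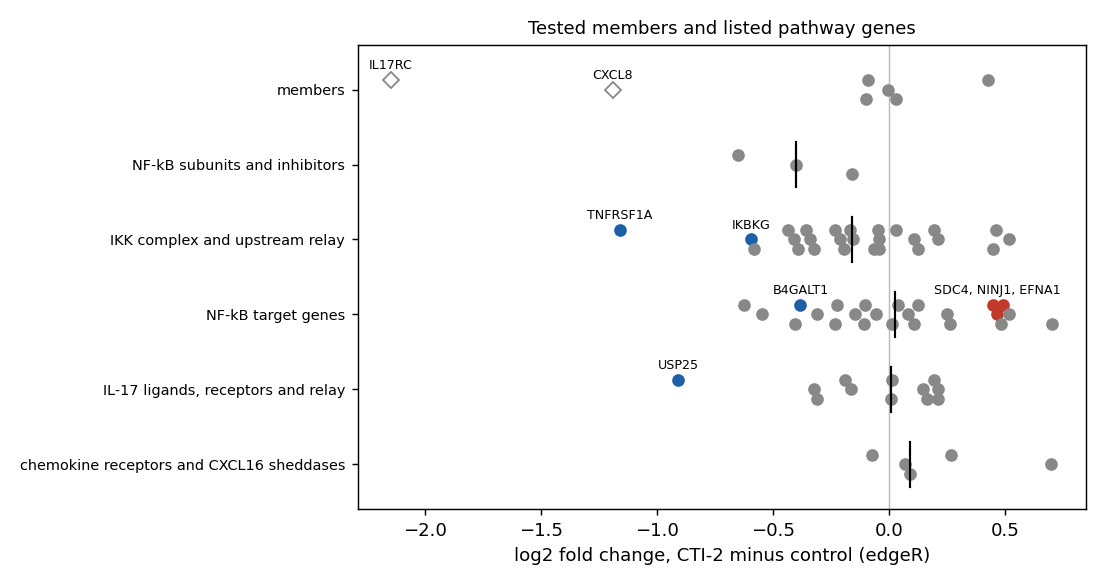
Log2 fold change, CTI-2 minus control, of each tested gene (points, edgeR) for the members and 5 pathway lists, with the median of each list as a black line; no ligand of the chemokine list was tested. Red points passed as higher and blue as lower at an adjusted p of 0.05, grey points did not pass, and open diamonds are CXCL8 and IL17RC, shown without a test; the other 5 members lie between -0.10 and 0.42.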

How the data were processed

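RNA from 3 control and 3 CTI-2 samples was read as cDNA on the Oxford Nanopore platform, per the labels' protocols. The submitters' processing notes name minimap2, with no version; genome build, annotation and counting tool are not stated. The authors deposited read counts per gene, which are whole numbers. They also deposited CPM, which equalled each count over its library total times 1000000. Grouping followed the agent that each label names. edgeR's filterByExpr kept 9848 genes, which were scaled by TMM and tested together with edgeR 4.0.16 (robust quasi-likelihood, R 4.3.3), with Benjamini-Hochberg adjustment at 0.05. Alternatives used other scalings and filters, DESeq2 1.42.0, limma 3.58.1 (voom), the replicate number as a block and leaving out each library. The fit was tested on simulated counts.

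Some choices were made after the data were seen. The first fit run kept library sizes over all genes and called 786 genes; after its calls were seen, library sizes were recomputed over the genes kept, edgeR's usual handling, and the first fit became an added alternative. Per-kilobase levels first used the median transcript length and were changed to the longest coding transcript, because partial transcripts shortened the median for RELA. The 3 motifs and the promoter run shown were chosen with the promoters in view. Members and lists were chosen with earlier results of these data known.

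Coordinates are 1-based, from GENCODE 29 on GRCh38, and are printed only where the deposited gene length equals that span (80.6% of Ensembl genes), or from RefSeq on GRCh38.p14 for promoters. All 10 members are described whatever their values. Of each list, up to 3 called genes per direction by adjusted p are named, or the 2 of highest CPM where none was called, and the 3 genes most like CXCL8 and IL17RC. Some measured values beside the results are not reported here. A symbol with more than 1 row was taken by its row with more reads. Reads carry no molecular identifiers, so floors (3 counts) cover counting error only. Libraries of a group differed beyond counting noise (chi-square over its degrees of freedom 1.77 to 6.76).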

Additional observations from a re-analysis of the deposited data

How the results depend on the processing

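The log2 fold changes of CXCL8 and IL17RC kept their sign under every alternative run and moved by less than the spread of the libraries. Both genes were picked for lower counts after CTI-2, so the kept sign is a description and no support for a fall. None of the 5 other tested members was called under any, where 8.03% of all tested genes were called in the main fit. DESeq2 called 498 genes (47.0% lower, against 57.8%) and 2 listed pathway genes. Leaving out a library gave 400 to 1610 genes, 3 to 7 listed genes and log2 fold changes of -0.21 to 0.0523 for CXCL2, -0.13 to 0.16 for NFKB1 and -0.14 to 0.19 for RELA. The 1610 came without control 2 (40.6% lower), against 453 without control 1, 492, 450 and 400 without CTI-2 libraries 1 to 3 and 552 without control 3. NFKB1 had -0.0295 with library totals, and RELA 0.029 in DESeq2, 0.0075 in limma-voom and 0.0099 with the replicate block; the cause was not tested. The first fit run, with library sizes over all genes, gave 786 genes (60.7% lower), 7 listed genes and 0 other members; it became an alternative after the data were seen. The replicate block gave 942 genes, 7 listed genes and 0 other members. Same-numbered libraries did not visibly deviate together (r = -0.05, 0.0069 and -0.12 across genes). No control correlated best with the CTI-2 library of its own number, and among the CTI-2 libraries only library 2 correlated best with its own. With 3 libraries per group this cannot show whether same-numbered libraries were handled together. CXCL16 and IL17RA had too few counts to be tested, and NFKB2, at 7 to 17 counts per library, had the widest interval of the tested members not chosen for a fall.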
